A study of Linum usitatissimum with 4 samples.

Results

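Flax seedlings (Linum usitatissimum, cultivar JRF-2) raised from seeds soaked in 5-azacytidine were compared with untreated seedlings by whole-genome bisulfite sequencing, a method that turns unmethylated cytosine into a base sequenced as thymine and leaves methylated cytosine as it is. The members are all rows of the authors' 3 deposited tables of this comparison, 1 table per sequence context (CG, CHG and CHH, where H stands for A, C or T). They are 566 listed cytosines of the 1894 in all tables of the study, which also hold heat against control (184) and 5-azacytidine plus heat against control (1144). The 5-azacytidine library came from seeds kept for 24 h in a 1 mM solution in the dark at 20 °C and then grown without heat. The labels describe no such soak for the control library. Plants of both libraries grew at 22 ± 2 °C with a 16 h light and 8 h dark cycle until sampling at 21 days of age. Each library is 1 pool of shoot apices (3 to 5 cm) from 10 seedlings, so each side of the comparison is 1 sample and no value has a replicate error.

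Cytosine methylation in plants is kept up by a separate enzyme system in each context. In Arabidopsis, MET1 copies CG methylation to the new strand after replication, CMT3 maintains CHG methylation, and CHH methylation is set again in every cell cycle by CMT2 and by DRM2, which small RNAs guide to its targets. A CG or CHG site has a cytosine on each strand, whereas a CHH site has none opposite. 5-Azacytidine is a cytidine analogue that is built into nucleic acids and, in DNA, traps methyltransferases that act on it. Its use in seeds and seedlings is therefore a common way to lower methylation.

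Each row spans 1 bp and gives the authors' p-value, q-value (a p-value adjusted for the number of sites tested), methylation difference in percentage points, and nearest gene start. A negative difference is read as lower methylation in the 5-azacytidine library than in the control library. The tables hold only sites that passed the authors' limits, and the coverage and level of each site in each library were not analysed here, so the depth behind a difference is unknown. All statements therefore describe these 2 libraries, and intervals are exact binomial (Clopper-Pearson) 95% intervals over listed sites, which share reads where they lie close together. An apex is a mix of cell types, and a change within cells and a change in the mix cannot be told apart in a pooled library. The control library also serves the other comparisons of the study, so what belongs to 5-azacytidine and what belongs to that 1 library cannot be told apart either.

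Methylation was lower in the 5-azacytidine library at 514 of the 566 listed cytosines (90.8%) and higher at 52 (9.19%, 6.94 to 11.9). By context, the lower sites were 51 of 64 in CG (79.7%), 38 of 47 in CHG (80.9%) and 425 of 455 in CHH (93.4%). These shares are the background for every count of lower sites given for a gene, cluster or gene list. CHH sites made up 80.4% of the list and lay near 191 of its 216 nearest genes, against 42 genes for CG and 23 for CHG. The share of CHH among all cytosines the authors could test is unknown.

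Most listed differences were small. In the authors' deposited tables the median absolute difference was 10.3 points, with quartiles of 8.24 and 14.5, and the smallest was 5.05 points. The median absolute difference was 13.1 points at CG sites, 14.7 at CHG sites and 9.68 at CHH sites. In all, 267 sites differed by less than 10 points and 220 by 10 to 20 points, which leaves 38 sites between 20 and 40 points and 41 sites at 40 points or more. Over all contexts, the share of higher sites increased with the size of the difference: 5.99% of the sites under 10 points were higher in the 5-azacytidine library, 8.64% of those between 10 and 20 points, 15.8% (6.02 to 31.3) of those between 20 and 40 points and 26.8% (14.2 to 42.9) of the largest. Within contexts there was no steady increase. In the same order of size, the higher share was 5.39%, 6.17%, 3.85% and 23.1% of CHH sites and 23.1%, 13.0%, 20.0% and 33.3% of CHG sites. It was 0%, 17.1%, 57.1% and 33.3% of CG sites, so that 4 of the 7 CG sites between 20 and 40 points were higher.

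**Figure D1:**
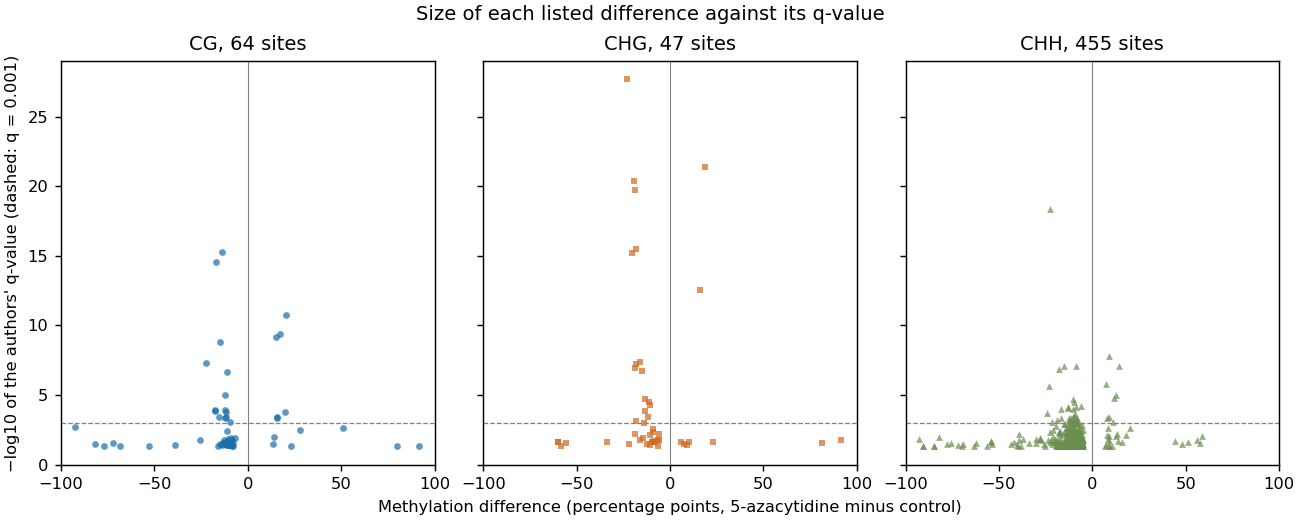
Each point is 1 listed cytosine, by context, with the authors' methylation difference (5-azacytidine minus control, percentage points) on the horizontal axis and −log10 of the authors' q-value on the vertical axis; the dashed line marks q = 0.001. The 80 sites above the line lie between -24.4 and 20.3 points, and the 41 sites beyond 40 points in either direction all lie below it.

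The largest differences and the smallest q-values belonged to different sites. None of the 41 sites at 40 points or more had a q-value below 0.001 in the authors' deposited tables, 3 had one below 0.01, and 38 had no listed neighbour within 100 bp. These 41 sites lay near 40 genes, so almost every gene had 1. The exception was Lus10033213 on Lu2. Its family text names glutathione S-transferase domains, an elongation factor 1 gamma domain and a domain of unknown function, so its role is not settled by the text. Its CHG cytosines at 17343021 and 17343024 had -60.0 and -60.2 points and a CG cytosine at 17343052 had -39.1 points in the authors' deposited tables, 36240 to 36271 bp downstream of the gene start, with q between 0.0225 and 0.0404. The 3 with a q-value below 0.01 were the CG site at -92.3 points near the kinesin gene Lus10010300 (q = 0.00206), the CG site at 50.9 points near Lus10000739 (q = 0.00257) and the CHH site at 58.9 points near the trigger factor chaperone gene Lus10004791 (q = 0.00837), as given in the authors' deposited tables.

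The 80 sites with a q-value below 0.001 comprised 20 CG, 17 CHG and 43 CHH cytosines, of which 64 were lower and 16 higher in the 5-azacytidine library. Of these, 53 (66.3%) lay in clusters of 3 or more listed sites and 23 lay near a single gene, Lus10011702. Without that gene, 57 sites were left, 46 lower and 11 higher. The 11 smallest q-values belonged to 3 genes only, with 6 near Lus10011702 on Lu9 and the others in a cluster on Lu14 shared by Lus10002716 and Lus10002717. How the sites were spread along the chromosomes is therefore described before single genes.

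Both cytosines of a symmetric site were listed in 10 cases, 4 in the CG context (starts 1 bp apart) and 6 in the CHG context (starts 2 bp apart). The pairs are taken from spacing alone, since the strand column of the tables was not used. They hold 8 of 64 CG sites (12.5%, 5.55 to 23.2) and 12 of 47 CHG sites (25.5%, 13.9 to 40.3). All 10 pairs were lower on both cytosines. However, 9 of the 10 lay near Lus10011702, where all 6 CG sites and 12 of 15 CHG sites were paired. Some of these pairs recur at a constant spacing, described below for that gene, and may not be separate observations. Without that gene the shares were 3.45% of 58 CG sites (1 pair) and 0% of 32 CHG sites, whose interval reaches 10.9%. A listed CG or CHG cytosine elsewhere in the genome thus mostly stood without a listed partner in its own context. A partner may have missed the authors' limits or not have been testable. The cytosine opposite a CHG cytosine can also be in the CG context, and such partners were not searched for.

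Within a pair, the differences on the 2 cytosines were 0.232 to 7.95 points apart, with a median of 4.82. The closest CHG pair, 12309025 and 12309027 on Lu9, had -18.4 and -18.2 points. The widest, 12308233 and 12308235, had -18.9 and -10.9 points, both from the authors' deposited table. Among CG pairs, 12308843 and 12308844 had -11.0 and -11.6 points and 12309150 and 12309151 had -14.7 and -22.3 points in the authors' deposited table. The 1 pair elsewhere lay on Lu4 at 1004006 and 1004007, 1814 and 1813 bp downstream of the start of Lus10030337, which has no family description, with -9.67 and -17.5 points in the authors' deposited table. The q-value was smaller at the cytosine with the lower position in 8 of the 10 pairs.

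**Figure D2:**
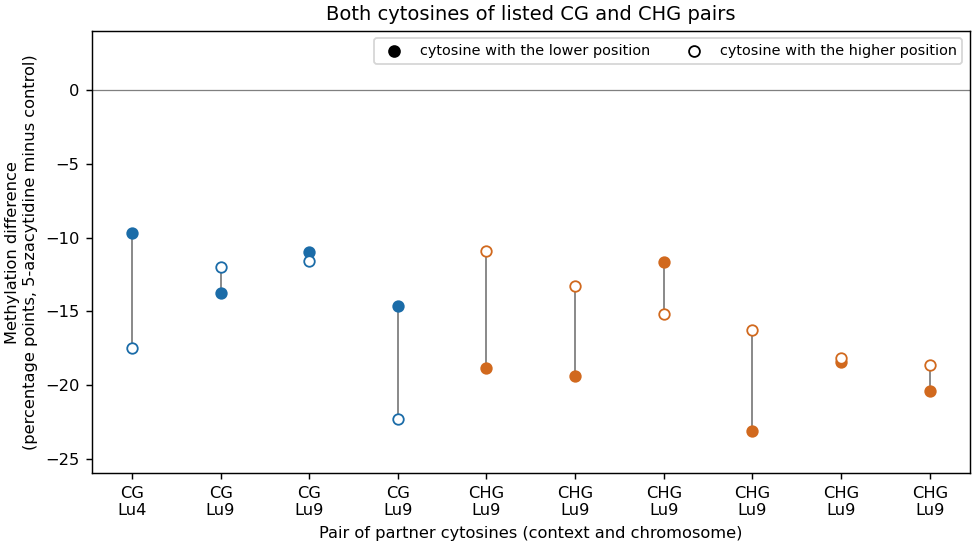
Methylation difference (5-azacytidine minus control, percentage points) at both cytosines of each listed CG or CHG pair, with a filled circle for the lower position, an open circle for the higher position and a line joining partners. All 20 values are below 0, between -23.1 and -9.67 points, and 9 of the 10 pairs are on Lu9.

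Cytosines 1 bp apart did not always move together. There were 11 such pairs of neighbours. The 6 without a CHH cytosine all had 1 direction, while of the 5 with a CHH cytosine 4 had opposite directions. Those 6 include the 4 CG pairs described above, and the others lie in the Lu14 cluster near Lus10002716, so they come from few places. On Lu14, a CHG cytosine at 8137629 had 18.9 points and the CHH cytosine beside it at 8137630 had -22.7 points, with q-values of 3.87e-22 and 4.31e-19 in the authors' deposited tables. Near Lus10011702 the CHH cytosine at 12308232 had 9.17 points next to a CHG cytosine with -18.9 points, and the CHH cytosine at 12309024 had 7.67 points next to a CHG cytosine with -18.4 points, according to the authors' deposited tables. Near Lus10009761 on Lu13 both neighbours were CHH cytosines, with 8.75 points at 11567412 and -8.11 points at 11567413 in the authors' deposited table. The CHH and CHG neighbours near Lus10011702 lie at positions that recur at a constant spacing, described below, and may not be separate cases. Whether reads of both strands contribute to such neighbours was not tested.

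Along the chromosomes, 342 of the 566 sites (60.4%) had no listed site within 100 bp, 102 formed 51 clusters of 2, and 122 (21.6%) lay in 24 clusters of 3 or more. Without Lus10011702 the last share was 17.5% of 532 sites. CHH sites were mostly isolated: joined among themselves alone, 8.35% of them lay in clusters of 3 or more. Of the 24 clusters, 12 had lower sites only, 12 had both directions and 0 had higher sites only. Sites in these clusters were higher in the 5-azacytidine library in 17.2% of cases (11.0 to 25.1), against 7.84% in clusters of 2 and 6.73% (4.31 to 9.92) of single sites. By context this difference was seen at CHH sites, with 10 of 61 higher in clusters of 3 or more (16.4%, 8.15 to 28.1) and 14 of 304 higher among single sites (4.61%, 2.54 to 7.61). Of those 10 sites, 5 lay near Lus10011702. The other contexts went the opposite way within wide intervals: 18.8% of 32 CG sites and 17.2% of 29 CHG sites in such clusters were higher, against 22.7% of 22 and 25% of 16 among single sites.

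The share of neighbours with 1 direction changed little with the distance between them. Neighbouring listed sites on a chromosome had the same direction in 85.1% of 74 cases at 1 to 20 bp, in 81.3% of 75 at 21 to 100 bp, in 88.0% of 150 above that and up to 1000 bp, in 87.9% of 58 up to 10000 bp and in 85.1% of 194 at larger distances. With 90.8% of all listed sites lower, unrelated sites also share a direction in most cases. These shares are to be read against that background, and an excess over it was not tested. The median distance between neighbours was 664 bp.

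The 2 largest stretches near 1 gene were on Lu9, past the start of Lus10011702. The family text relates this gene to ATL42, a RING-type E3 ubiquitin ligase (an enzyme that marks proteins for breakdown). The gene had 34 listed sites (6.01% of all), 28 lower and 6 higher, from 6878 to 11899 bp downstream of its start. Of these, 29 lay in clusters of 11 sites (12308213 to 12308390) and 18 sites (12308731 to 12309151). Several positions of the first cluster recur in the second at a constant spacing, with the same context and direction. They include 12308232, 12308233 and 12308235 with 12309024, 12309025 and 12309027. The same holds for 12308300 and 12308302 with 12309092 and 12309094, and for 12308358 and 12308359 with 12309150 and 12309151. Whether the stretch holds a repeated sequence was not tested, so the 2 clusters may not be separate observations. In these clusters CG and CHG sites were nearly all lower and CHH sites were mixed. Lower were 6 of 6 CG sites (median -12.9 points) and 14 of 15 CHG sites (median -16.3 points) in the authors' deposited tables. Of the 8 CHH sites, 5 were higher and 3 lower (median 8.42 points). By position, the CHH differences ran 9.17, -8.97, 11.0, 12.5, -9.67, -10.5, 14.4 and 7.67 points, with higher and lower cytosines interleaved. The 1 CHG site that was higher had 9.22 points at the edge of the stretch (12308213, q = 0.0409), per the authors' deposited table. A further 5 CHH sites of this gene outside the clusters were all lower, between -19.3 and -9.45 points in the authors' deposited table. The one at 12308582 (-9.45 points) lies between the 2 clusters. Over the whole gene, 8 of 13 CHH sites were lower.

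The cluster on Lu14 held 12 sites within 134 bp (8137561 to 8137695), 550 to 664 bp upstream of 2 gene starts. The tables assign 10 of its sites to Lus10002716, which has no family description, and 2 to Lus10002717, described as a serine/threonine protein kinase. It held 8 lower and 4 higher sites, and directions changed within a few bases. The CG sites at 8137561, 8137581 and 8137607 had -10.4, -12.8 and -12.1 points, whereas the last CG sites, at 8137673 and 8137695, had 20.3 and 15.2 points, with a CG site at -17.0 points (8137658) between them and the first 3 in the authors' deposited table. Of its 4 CHG sites, those at 8137629 and 8137680 were higher, with 18.9 and 16.2 points, and those at 8137608 and 8137659 were lower, with -9.07 points (q = 0.00276) and -5.85 points (q = 0.00623), in the authors' deposited table. Farther on, past the start of Lus10002716, the 2 CHH sites at 348 and 447 bp downstream had -7.80 and -7.73 points in the authors' deposited table.

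The other clusters of 5 or more sites were lower for the most part. On Lu4, 9 sites lay 1718 to 1935 bp downstream of the start of Lus10030337: 3 CG sites between -17.5 and -8.24 points and 5 CHH sites between -8.53 and -5.76 points were lower, and the outermost CHH site was higher at 13.9 points in the authors' deposited tables. On Lu15, 6 sites lay 88 to 218 bp downstream of the start of Lus10007146, which has no description. All 6 were lower, with 3 CG sites at -12.0, -15.4 and -11.9 points and 3 CHH sites at -7.89, -7.20 and -9.68 points in the authors' deposited tables, and a seventh listed CHH site, 59 bp upstream of the start, had -8.87 points. On Lu4, 6 sites 5775 to 6025 bp downstream of the start of Lus10008727, described as a DO-like 15 protein, had 3 lower CHH sites (-10.4 to -9.15 points), 1 lower CHG site (-13.2 points) and 2 higher CHG sites (5.74 and 7.26 points) in the authors' deposited tables. On Lu1, 5 sites within 61 bp, 10704 to 10765 bp upstream of Lus10005736, described as a P-loop nucleoside triphosphate hydrolase, had 4 lower sites between -18.0 and -7.66 points and 1 higher CHH site at 11.6 points in the authors' deposited tables. Outside that cluster, Lus10005736 had CHH sites at 24558575, 24558823 and 24558834 with -17.6, 8.87 and 7.46 points in the authors' deposited table.

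**Figure D3:**
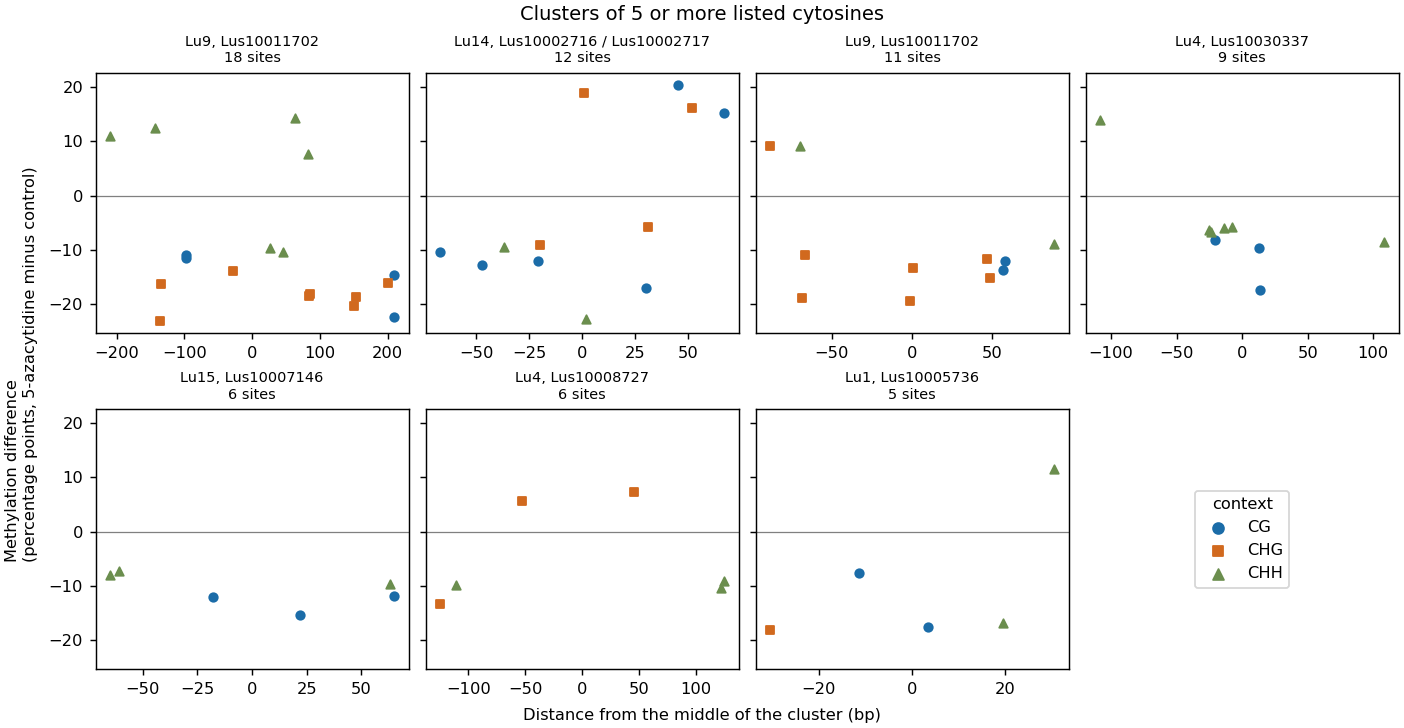
The 7 clusters of 5 or more listed cytosines, 1 panel each, with the distance from the middle of the cluster (bp) on the horizontal axis and the methylation difference (5-azacytidine minus control, percentage points) on the vertical axis; markers show the context. In the 2 Lu9 clusters CG and CHG sites lie below 0 apart from 1 CHG site while 5 of 8 CHH sites lie above it, and 1 of the 7 clusters (Lu15) has lower sites only.

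Clusters of 4 included Lus10020906, related to the copper chaperone ATOX1, with 1 CG and 3 CHH sites between -10.7 and -6.76 points in the authors' deposited tables, 1888 to 1943 bp downstream of the start. Lus10009598, described as a zinc transporter of the cation efflux family, had 4 CHH sites within 154 bp, 1495 to 1649 bp upstream of its start, at -10.3, -9.35, -22.9 and -19.3 points in the authors' deposited table. All 8 of these sites were lower. The cluster 1817 to 1944 bp upstream of Lus10024541 (no description) was divided, with CG sites at 14.2, -13.0 and 15.4 points and a CHH site at -13.9 points in the authors' deposited tables. On Lu4, 3 neighbouring CHG sites upstream of Lus10000435 were all lower without a listed partner, at -6.57, -10.5 and -11.1 points in the authors' deposited table.

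Listed sites occurred on all 15 chromosomes, with 203 (35.9%) on Lu9 (72), Lu3 (69) and Lu13 (62) and 5 on Lu12. Chromosome lengths and the number of testable cytosines on each were not used, so these counts are not densities. Lower sites prevailed on every chromosome, at 83.3% on Lu9 and 84.6% on Lu1 at the low end and at 100% on Lu2 (27 sites), Lu8 (20), Lu11 (21) and Lu12. Joining sites up to 10000 bp apart gave 209 blocks, of which 28 with 5 or more sites held 269 sites (47.5%) and 115 held a single site. The largest after Lu9 was a block of 28 sites on Lu13 (6990513 to 7017170), 25 of them lower, where sites were spread out: the largest cluster within 100 bp had 3 sites. A block of 16 on Lu5 (7447106 to 7457462) had 15 lower sites and a block of 15 on Lu3 (9537655 to 9563332) had 14.

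Relative to gene starts, the median distance of the 566 sites was 7014 bp, 129 (22.8%, 19.4 to 26.5) lay within 2000 bp and 206 lay more than 10000 bp away. The nearest was a CHH site 24 bp upstream of Lus10011586 with -6.42 points, and the farthest a CG site 490723 bp from the start of Lus10002475 with -68.6 points, per the authors' deposited tables. Sites were on the upstream side in 310 cases (54.8%) and on the downstream side in 256. CG sites lay within 2000 bp in 25 of 64 cases (39.1%, 27.1 to 52.1), CHG sites in 6 of 47 (12.8%, 4.83 to 25.7) and CHH sites in 98 of 455 (21.5%, 17.8 to 25.6). The CHG share depends in part on 1 gene, since 15 of the 25 CHG sites between 5000 and 10000 bp belong to Lus10011702, and without it the share was 18.8% of 32. The CG share was 18.8% at a limit of 1000 bp. How testable cytosines are placed around gene starts is unknown, so these shares have no baseline.

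Of the 129 sites within 2000 bp of a gene start, 119 were lower and 10 were higher (7.75%, against 9.19% of all sites). CHH sites there were lower in 95 of 98 cases, and CG sites on the downstream side in 13 of 13, against 8 of 12 on the upstream side, where all 4 higher sites came from the clusters at Lus10002716, Lus10002717 and Lus10024541. Of the 6 CHG sites there 3 were higher (50%, against 19.1% of all CHG sites), 2 of them in the Lu14 cluster and 1 at 351 bp downstream of the start of Lus10015964. The median difference of sites within 2000 bp was -9.35 points, against -9.66 points for all listed sites.

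**Figure D4:**
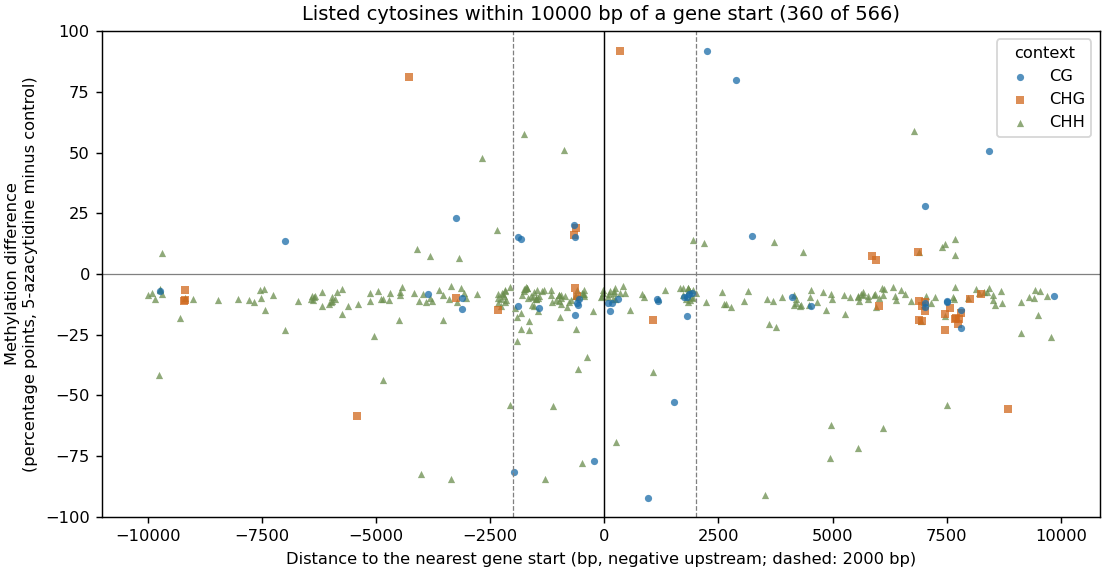
Distance to the nearest gene start (bp, negative upstream, dashed lines at 2000 bp) and methylation difference (5-azacytidine minus control, percentage points) for the 360 of 566 listed cytosines within 10000 bp, with markers by context. Most points form a band near -10 points at all distances, and the group of CHG sites between 6878 and 7807 bp downstream belongs to Lus10011702.

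Among described genes with a listed site within 2000 bp of the start, the 12 with the smallest q-values in the authors' deposited tables had 11 lower sites and 1 higher. The higher one was the CHG site 664 bp upstream of the kinase gene Lus10002717 (16.2 points, q = 3.02e-13). Next came a CHH site 1917 bp upstream of Lus10005706, related to a beta-glucosidase (an enzyme that releases glucose from glucosides), with -17.8 points and q = 1.39e-07 in the authors' deposited table, and a second CHH site there had -7.32 points. Lus10028605, described as riboflavin kinase, which makes the cofactor FMN, had 3 CHH sites 945 to 996 bp upstream of its start with -12.3, -8.55 and -8.69 points in the authors' deposited table. Lus10032536, a WD40-domain gene, had 4 CHH sites 438 to 628 bp upstream, all between -9.16 and -8.10 points in the authors' deposited table.

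Lus10015447, related to LTV1, a factor for ribosome assembly in yeast, had 1 CHH site 1178 bp downstream of its start with -10.5 points in the authors' deposited table. Lus10013917, described as a sterol regulatory element-binding protein, had 3 CHH sites at 1698, 1751 and 2337 bp upstream with -5.67, -6.19 and -8.18 points in the authors' deposited table. Lus10035676, described as a guanine nucleotide exchange factor for ROP GTPases, switches of polar cell growth in plants, had CHH sites 1485 and 1604 bp upstream with -10.0 and -9.11 points in the authors' deposited table. Lus10015694, related to arabinogalactan peptide 23, a cell wall peptide, had 3 CHH sites at -22.6, -6.70 and -6.61 points, and the Agenet-domain gene Lus10039027 had 1 site, 941 bp upstream, with -8.58 points in the authors' deposited table. The CG site 961 bp past the start of Lus10010300, a gene for a kinesin motor that walks towards microtubule minus ends, was the 1 large difference of the group (-92.3 points, q = 0.00206 in the authors' deposited table) and had no listed neighbour.

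Sites were unevenly shared among the 216 nearest genes. A single site was listed for 117 genes, while 27 genes with 5 or more sites held 247 sites (43.6%). Of these 27 genes, 13 had lower sites only, 14 had both directions and 0 had higher sites only. In 19 of the 27, every site lay more than 2000 bp from the gene start. The gene is then a label of the region and no link to its activity is implied. Over all genes, 179 had lower sites only, 13 higher sites only and 24 both.

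Behind Lus10011702, the genes with most sites have no family description. Lus10024540 on Lu13 had 27 sites, 10716 to 30868 bp upstream, with 21 of 22 CHH sites lower, its CG site at -25.5 points, and 2 of 4 CHG sites higher, at 10.2 and 23.2 points in the authors' deposited tables. Lus10006013 on Lu5 had 16 sites, 15347 to 25703 bp downstream of its start. All 14 of its CHH sites were lower, between -38.4 and -5.23 points, and its CG sites had -11.1 and 20.1 points in the authors' deposited tables. Lus10024541 on Lu13 had 12 sites, with all 9 CHH sites lower. Lus10019378 on Lu3 had 11 CHH sites, all lower, between -16.1 and -5.46 points and 23907 to 38838 bp upstream, and Lus10024969 on Lu11 had 9 sites, all lower, between -18.9 and -6.31 points and 39115 to 61213 bp upstream, per the authors' deposited tables.

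Described genes with CHH sites only that were all lower formed a further group. Lus10002410, described as a soluble NSF attachment protein, which helps to recycle the SNARE complexes of membrane fusion, had 9 CHH sites between -14.7 and -6.18 points, 6712 to 11660 bp upstream, in the authors' deposited table. Lus10007981, a nucleotide pyrophosphatase, had 6 CHH sites between -13.1 and -6.14 points within 957 bp. The serine/threonine kinase gene Lus10008540 had 6 between -16.5 and -7.45 points, 2571 to 5270 bp downstream of its start, in the authors' deposited table. Lus10008761, a serine/threonine phosphatase, had 6 between -21.2 and -6.26 points spread over 21766 bp. The same pattern held for Lus10017173, described as ST5 (6 sites, -17.1 to -5.34 points), the inorganic diphosphatase gene Lus10008828 (5 sites, -15.1 to -6.39 points, 26872 to 28151 bp upstream) and the kinase-related gene Lus10034637 (5 sites, -9.91 to -7.18 points) in the authors' deposited table. With 93.4% of all listed CHH sites lower, runs of this kind are near the background.

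Some other described genes with 5 or more sites had 1 site against the direction of the rest. The homoserine dehydrogenase gene Lus10034077, for an enzyme of threonine and methionine synthesis, had 5 lower CHH sites (-19.2 to -6.07 points) and 1 higher CG site (28.0 points, q = 0.00351) in the authors' deposited tables. Lus10037056, a gene of GDXG lipolytic enzymes, had 4 lower CHH sites and 1 higher CG site (23.1 points), and Lus10009768, a DUF4370 gene, had 6 lower CHH sites and 2 CG sites, at 17.5 points (q = 4.02e-10) and -11.7 points, 35209 and 35120 bp upstream in the authors' deposited tables. In Lus10010362, a gene for a cysteine-rich repeat secretory protein, the exception was a CHH site with 7.51 points (q = 1.59e-06), 3 bp from a CHH site with -10.0 points in the authors' deposited table. Lus10019377, which carries the description of LAP3, a protein of pollen development, had 5 lower sites and 1 CHH site at 8.43 points, at a distance of 40653 bp upstream, per the authors' deposited tables. Described genes with a more mixed direction were Lus10005736, with 5 lower and 3 higher sites, and Lus10008727, with 4 lower and 2 higher sites.

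The 4 remaining genes of this size have no family description. Lus10007187 on Lu7 had 7 sites around its start, from 2330 bp upstream to 243 bp downstream, all lower, with 6 CHH sites between -11.4 and -5.92 points and a CHG site at -14.7 points in the authors' deposited tables. Lus10008011 on Lu7 and Lus10001348 on Lu8 had 6 and 5 CHH sites, all lower. Lus10007142 on Lu15 had 4 lower CHH sites, of which the one at -24.4 points had q = 0.00021, and 1 higher CHH site at 55.9 points, 44144 bp upstream (q = 0.0186), in the authors' deposited table.

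**Figure D5:**
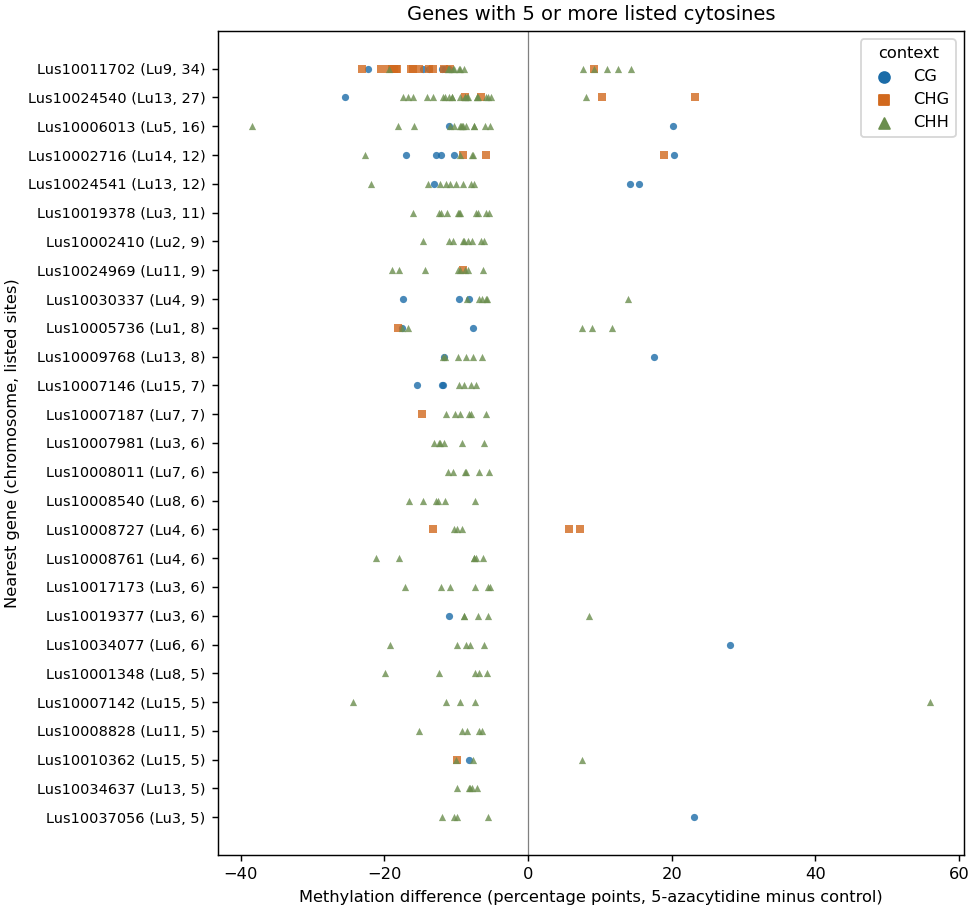
Methylation difference (5-azacytidine minus control, percentage points) of every listed cytosine for the 27 genes with 5 or more, 1 row per gene with its chromosome and number of sites, and markers by context. Lus10011702 (34 sites) has the most CHG sites, and 13 of the 27 genes have no point above 0.

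Family descriptions were searched for the words of 12 gene lists, which together matched 134 sites near 53 genes. For 10 of the lists the count of lower sites is to be read against 90.8%, and 2 lists (hormone, and transposable elements) matched 0 sites. No list was tested. A word match does not show the function of a gene, and genes described in other words are missed. Kinases and signalling had 32 sites near 12 genes, 29 lower, with a median of -9.93 points against -9.66 for all sites. Of the 32 sites, 6 lay within 2000 bp of a gene start. This list takes in metabolic enzymes by the words kinase or phosphatase, such as riboflavin kinase (Lus10028605), nucleoside diphosphate kinase (Lus10017931) and pyridoxal phosphatase (Lus10005305). Its 2 genes with most sites are Lus10008540 and Lus10008761, described above, and a further kinase gene, Lus10041426, had 4 CHH sites, all between -10.7 and -9.96 points in the authors' deposited table. The protein turnover list held 39 sites, 33 lower, near the 3 genes that its words matched, with 34 from Lus10011702. The RING finger gene Lus10015167 had 4 lower CHH sites, 3 of them between -6.67 and -5.24 points and 1 at -18.8 points in the authors' deposited table.

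RNA silencing, methylation and chromatin had 10 CHH sites near 6 genes, 9 lower, with a median of -11.0 points. Lus10010175 is related to SDE3, an RNA helicase of RNA silencing in Arabidopsis, and had -11.4 and -11.0 points 3897 and 4047 bp upstream in the authors' deposited table. Lus10004454, described as an RNA polymerase I-specific transcription factor, had 4 lower sites between -19.2 and -5.18 points in the authors' deposited table. Lus10009346, described as a subunit of RNA polymerase II, had -11.4 points 2236 bp downstream of its start, and Lus10009022, related to the RNA helicase DHX30, had -77.8 points 490 bp upstream (q = 0.0338) in the authors' deposited table. The 1 higher site was at ASHR3 (Lus10003777), a histone methyltransferase gene, with 51.0 points 885 bp upstream (q = 0.0222) in the authors' deposited table. One member, Lus10005822, matched only by the word methyltransferase and acts on glucuronoxylan, a cell wall polymer. No gene described as a DNA methyltransferase matched.

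The list of cytoskeleton and vesicles held 15 sites near 5 genes, all lower. One of these genes, Lus10029799, is described as actinidain, a cysteine protease, and matched only by its first letters. The words of the protein turnover list did not match it. Of the 15 sites, 9 belong to Lus10002410 and 3 to the clathrin assembly gene Lus10003642 (-10.8 to -8.52 points in the authors' deposited tables). Transport had 15 sites near 10 genes, 13 lower, led by the 4 sites of the zinc transporter gene Lus10009598, and it includes the kinesin gene Lus10010300 by the word ATPase. The proton pump gene Lus10028202, described as plasma membrane ATPase 4, had a higher CHH site at 12.7 points and a lower one at -5.73 points, 2179 and 1726 bp downstream of its start, in the authors' deposited table. Redox had 8 sites near 5 genes, all lower, with a median of -46.5 points, which rests on the 3 sites of Lus10033213 and 2 single sites. Lus10033213 matched by the word glutathione, and its text also names an elongation factor 1 gamma domain. The transcription factor list held 8 sites from 7 genes, 7 lower, and a median of -27.7 points. One of them, Lus10013938, is a FYVE-domain gene that matched only by the words zinc finger. Another, Lus10019708, has NB-ARC and TIR domains beside the CCAAT-binding transcription factor domain that matched. In this list Lus10004796, described as subunit B of nuclear factor Y, had 2 CHH sites at -39.8 and -37.2 points in the authors' deposited table. They lay 12113 and 12507 bp downstream of its start. Genes described as YABBY (Lus10008374), NAM (Lus10017807), GRAS (Lus10012236) and sterol regulatory element-binding protein (Lus10013917) carry none of the list's words and were not matched. Their sites lay between -28.2 and -5.67 points in the authors' deposited tables, so the median depends on the words chosen. The 6 sites of the cell wall and fibre list, from 4 genes, were all lower, chaperones had 3 sites with 2 lower, and photosynthesis and plastid had 2 lower sites, including -39.3 points 576 bp upstream of Lus10017931, described as a chloroplast nucleoside diphosphate kinase, in the authors' deposited table. The 2 lower chaperone sites belong to a copper chaperone for superoxide dismutase (Lus10007031) and a tubulin-specific chaperone (Lus10002949).

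Some of these cytosines also stood in the lists of the other treatments. Those lists use the same control library, so shared values are not separate evidence. In the Lu14 cluster, the CHG cytosine at 8137629 had 18.9 points with 5-azacytidine, 12.1 with 5-azacytidine plus heat and 18.7 with heat in the authors' deposited tables. Its CHH neighbour at 8137630 had -22.7, -18.3 and -18.5 points in the same order, and the CG cytosine at 8137673 had 20.3, 15.3 and 25.2 points in the authors' deposited tables. The CG cytosines at 6960009 and 6960089 near Lus10024541 had 14.2 and 15.4 points with 5-azacytidine, 18.7 and 19.2 with 5-azacytidine plus heat, and 18.0 and 21.1 with heat, again in the authors' deposited tables. Of the lower cytosines in that cluster, the CHH cytosine at 6960136 had -13.9 points with 5-azacytidine and -14.1 with heat, and the CG cytosine at 6960073 had -13.0 points with 5-azacytidine and -15.1 with 5-azacytidine plus heat in the authors' deposited tables. Higher and lower sites of both clusters thus stood in the heat list too. A CHH cytosine 6987 bp upstream of Lus10023765 had -23.2, -23.8 and -26.6 points in the same order of treatments in the authors' deposited tables.

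The Lu9 stretch differed in this respect. None of the 21 CG and CHG cytosines near Lus10011702 stood in a list of the other treatments, which says only that they missed the authors' limits there, and the difference between treatments was not tested. Of its CHH cytosines, 12308390 had -8.97 points with 5-azacytidine and -7.86 with 5-azacytidine plus heat, and 12308968 had -9.67 and -8.22 points, in the authors' deposited tables. The CHH cytosine at 12308731 was the 1 listed cytosine with opposite directions, at 11.0 points with 5-azacytidine and -8.47 points with 5-azacytidine plus heat in the authors' deposited tables.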

How the data were processed

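Per the submitters' processing notes, whole-genome bisulfite reads (paired, 150 bp) of 4 libraries went through FastQC, Trimmomatic, BWA, methylKit and MethylDackel (named here in no order). Tool versions and the genome build are not given in the sources used here. From these the authors deposited 9 tables, 3 of them for 5-azacytidine against control, with 1 row per cytosine. Each p-value and q-value is printed as the authors deposited it. The methylation difference is a score in percentage points computed by the authors, and a positive value is taken to mean more methylation in the treated library. This is how methylKit codes it, which the files do not state, and with the opposite coding all directions would swap. All q-values are below 0.05 and all absolute differences above 5 points. Starts are printed as deposited, and whether they count from 0 or 1 is not stated.

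Tables were read with Python 3.11.15, pandas 2.3.3, NumPy 2.4.6 and SciPy 1.17.1 and drawn with Matplotlib 3.10.9. Clusters join sites on 1 chromosome at most 100 bp apart. Partner cytosines are 1 bp (CG) or 2 bp (CHG) apart and in the same context. With 1 library per group no test was made, and intervals cover counting error only. Pairing, clustering and interval steps were checked on simulated data.

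Per the file headers, the gene and its distance are the authors' nearest gene start; downstream means past that start, inside or beyond the gene. All 194 cytosines in 2 or more of 8 tables carried 1 gene and 1 distance. The CG table of 5-azacytidine plus heat was used without its gene columns. In 5 of the 566 rows the gene name was that of another gene and was taken from the gene's second identifier. Descriptions are the family-level text (141 of 216 genes), of which the earliest occurrence was used. Free-text hits and the strand column were not used.

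Genes named are those with 5 or more sites, pairs outside the gene with most sites, clusters of 5 or more, the 12 described genes with the smallest q within 2000 bp of a start, and the 2 genes with most sites per list. Other genes were named after their values were seen. The members, lists and rules were chosen with earlier results of these data known. The blocks of 10000 bp and the comparison of neighbours were added after seeing the data.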

Additional observations from a re-analysis of the deposited data

How the results depend on the processing

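Of 36 alternatives for 9 shares, 19 stayed inside the 95% interval of the value reported and 17 did not; in all 14 alternatives for direction, lower sites remained the majority. The higher share was 43.8% of 16 CG sites and 13.5% of 52 CHH sites at differences of at least 20 points, and 18.6% of 43 CHH sites at q below 0.001. Within 1000 bp of a gene start lay 18.8% of CG and 9.89% of CHH sites, and within 5000 bp 53.1% and 39.1%. The share of sites in clusters of 3 or more was 17.1% at a limit of 50 bp, 35.2% at 300 bp, 8.35% for CHH sites only, 42.5% for sites with q below 0.001 clustered among themselves and 17.5% without Lus10011702, and clusters of 5 or more held 11.8%. At q below 0.001, 40.0% of CG and 58.8% of CHG sites had a listed partner; without Lus10011702, 3.45% and 0% did. Under another limit of distance, gap or cluster size a share can only move the way the limit moves. The count of alternatives is therefore a description and no measure of stability. Fewer sites enter under each stricter limit, more under each looser one, and other causes were not tested. No paired analysis was possible because each group is 1 library. Depth per site is unknown, so absence from a list does not show that a cytosine kept its methylation.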
